A study of Mus musculus with 3 samples.

Results

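The genes described here are 8 imprinted genes with roles in growth: Cdkn1c, Grb10, Dlk1, Mest, Peg10, Peg3, Zim1 and Plagl1. They were chosen by name, and all 8 have a row among the 15122 genes counted. They were measured in cells of wild-type mouse forelimb buds, freed with trypsin and sequenced in droplets (10x Genomics, 3′ version 2), where every cell receives a barcode and every captured transcript end a unique molecular identifier (UMI). There was 1 library in each group: c57bl6.J embryos at E10.5 (B6_E10.5, 18957 cells), 129S6.sv embryos at E9.5 (129_E9.5, 12220 cells) and c57bl6.J embryos at E9.5 (B6_E9.5, 12773 cells). The number of embryos in a library is not given in the labels. The authors' 5 clusters served as cell classes, and levels are given as CPM, the UMIs of the gene over all UMIs of the class, times 1000000.

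Imprinted genes are transcribed mainly from the copy inherited from 1 parent, and many of them act on the growth of the embryo and placenta. In the mouse, Peg3, Peg10, Mest, Dlk1 and Plagl1 are expressed from the paternal copy. Cdkn1c and Zim1 are expressed from the maternal copy, and so is Grb10 in most tissues. Cdkn1c encodes a cyclin-dependent kinase inhibitor (p57Kip2) that restrains cell division, and Grb10 an adaptor protein that dampens insulin and insulin-like growth factor signalling. Dlk1 encodes a transmembrane protein related to the Notch ligands, Mest a protein with the fold of the hydrolases, and Peg10 a protein derived from a retrotransposon and needed in the placenta. Peg3, Zim1 and Plagl1 encode zinc finger proteins. Each library came from 1 inbred strain, so that parental copies were not separated here.

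In the GENCODE M21 annotation of mm10, Peg3 (chr7:6703892-6730431) and Zim1 (chr7:6671269-6696450) lie next to each other on the minus strand of chromosome 7. They are the pair of neighbours among the 8 genes, and they are transcribed from opposite parental copies. The 250 bases before the RefSeq start of each are shown so that the start regions of this pair can be compared; they come from GRCm38.p6, read on the minus strand 5′ to 3′, at chr7:6730420-6730669 for Peg3 and chr7:6696433-6696682 for Zim1, with every CpG in capitals.
Peg3: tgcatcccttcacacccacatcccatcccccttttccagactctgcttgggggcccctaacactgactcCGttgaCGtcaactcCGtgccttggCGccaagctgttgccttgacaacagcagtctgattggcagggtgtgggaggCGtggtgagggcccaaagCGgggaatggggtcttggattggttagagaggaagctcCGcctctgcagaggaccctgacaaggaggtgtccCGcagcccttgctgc
Zim1: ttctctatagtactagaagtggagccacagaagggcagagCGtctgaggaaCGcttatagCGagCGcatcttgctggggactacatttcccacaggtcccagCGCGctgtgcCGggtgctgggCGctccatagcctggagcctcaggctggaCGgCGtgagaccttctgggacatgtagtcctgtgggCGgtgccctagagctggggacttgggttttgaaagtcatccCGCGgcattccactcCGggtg
The Peg3 stretch holds 8 CpG and the Zim1 stretch 14, against a median of 6 over the 32851 RefSeq start regions of the same length. As many CpG as in the Zim1 stretch are found in 29.4% of those regions, and as many as in the Peg3 stretch in 43.0%. RefSeq start regions were matched for 6 of the 8 genes. DNA methylation was not measured.

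The other genes lie at chr7:143458339-143461050 on the minus strand (Cdkn1c), chr11:11930508-12038683 on the minus strand (Grb10), chr12:109452823-109463336 on the plus strand (Dlk1), chr6:30723547-30748465 on the plus strand (Mest), chr6:4747306-4760517 on the plus strand (Peg10) and chr10:13060504-13131694 on the plus strand (Plagl1). Mest overlaps Mir335, Gm27522 and Gm27568 on its own strand and Copg2 and Gm44296 on the other. Cdkn1c overlaps Gm44732 and Plagl1 overlaps Gm27741, both on the other strand. The sources used here do not say whether the counting used strand, so reads of these overlapping genes cannot be told apart.

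The libraries held 119942504 UMIs in B6_E10.5, 93029510 in 129_E9.5 and 124388358 in B6_E9.5, with medians of 5710, 7348 and 7623 UMIs per cell in the same order. Markers of the fixed lists named the clusters: mesenchyme-like (2 of 8 markers among the 10 genes of highest fold, Tbx5 and Prrx1, and 6 among the top 50), ectoderm-like (6 of 12 among those 10), muscle-progenitor-like (5 of 7), endothelium-like (3 of 7, with the megakaryocyte gene Pf4) and erythroid-like (8 of 8). The rebuilt names are shortened below to mesenchyme, ectoderm, muscle, endothelial and erythroid. In the endothelial class, myeloid markers summed to 1302 CPM in B6_E10.5, 19.7 CPM in 129_E9.5 and 33.8 CPM in B6_E9.5, and megakaryocyte markers to 1172 CPM in B6_E10.5, 276 CPM in 129_E9.5 and 186 CPM in B6_E9.5. In the muscle class, somite and sclerotome markers summed to 208 CPM in B6_E10.5, 467 CPM in 129_E9.5 and 775 CPM in B6_E9.5, neuron markers to 8.53 CPM in B6_E10.5, 801 CPM in 129_E9.5 and 2.04 CPM in B6_E9.5, and endothelium markers to 27.1 CPM in B6_E10.5, 113 CPM in 129_E9.5 and 193 CPM in B6_E9.5. Erythroid cells had median depths of 14608 UMIs in B6_E10.5, 12004 in 129_E9.5 and 735 in B6_E9.5. In the shallow B6_E9.5 erythroid class haemoglobin genes took 31.9% of UMIs, against 51.3% in B6_E10.5 and 52.1% in 129_E9.5. Libraries shared the barcodes of 1728 cells, which were kept apart by library. All intervals cover counting error only, and no count of 0 was read as absence.

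The 8 genes had different patterns over the 5 classes, with 7 of them detected in every class of every library. Zim1 is the exception, with no UMI in the endothelial class of 129_E9.5. Cdkn1c, the kinase inhibitor, had a different order of classes in each library. In mesenchyme it was at 876 CPM in B6_E10.5, 239 CPM in 129_E9.5 and 159.6 CPM in B6_E9.5. In ectoderm it was at 429 CPM in B6_E10.5, 688 CPM in 129_E9.5 and 471 CPM in B6_E9.5. The mesenchyme level was above the ectoderm level in B6_E10.5 and below it in both E9.5 libraries. Muscle held 1079.6 CPM in B6_E10.5, 289 CPM in 129_E9.5 and 196 CPM in B6_E9.5, and the endothelial class 645 CPM in B6_E10.5, 876 CPM in 129_E9.5 and 343 CPM in B6_E9.5. The erythroid class was lowest in every library, at 10.2 to 53.3 CPM. Muscle was above mesenchyme in all 3 libraries, and no other order among the upper 4 classes held in all 3.

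Grb10, the other growth restrainer, was spread more evenly. It was highest in muscle, at 323 CPM in B6_E10.5, 381 CPM in 129_E9.5 and 522 CPM in B6_E9.5. Mesenchyme (188 to 255 CPM), ectoderm (215 to 279.5 CPM) and the endothelial class (215 to 226 CPM) overlapped in their ranges over libraries, and all were below muscle. The erythroid class was lowest, at 41.7 to 111 CPM.

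Dlk1 was highest in mesenchyme in every library, with muscle next at E9.5. Mesenchyme held 142 CPM in B6_E10.5, 214 CPM in 129_E9.5 and 302 CPM in B6_E9.5. Muscle held 15.6 CPM in B6_E10.5, 139.8 CPM in 129_E9.5 and 295 CPM in B6_E9.5. The muscle level was close to the mesenchyme level in B6_E9.5 and far below it in B6_E10.5. Ectoderm was lower, at 12.2 CPM in B6_E10.5, 22.9 CPM in 129_E9.5 and 46.7 CPM in B6_E9.5, and the endothelial class held 10.9 to 19.3 CPM. The erythroid class had 3.19 to 36.2 CPM, its highest value being that of B6_E9.5.

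Mest was highest in the endothelial class of every library, at 2043 CPM in B6_E10.5, 3102 CPM in 129_E9.5 and 3566 CPM in B6_E9.5. In mesenchyme it was at 1809.6 CPM in B6_E10.5, 2397 CPM in 129_E9.5 and 2334 CPM in B6_E9.5. Muscle (1503 to 2306 CPM) overlapped both of these over libraries. Ectoderm was below all 3, at 715 CPM in B6_E10.5, 905 CPM in 129_E9.5 and 1295 CPM in B6_E9.5. The erythroid class was at 66.1 CPM in B6_E10.5, 50.8 CPM in 129_E9.5 and 308 CPM in B6_E9.5. Peg10 was at 61.2 CPM in B6_E10.5, 60.9 CPM in 129_E9.5 and 132 CPM in B6_E9.5 in mesenchyme, and at 48.2 CPM in B6_E10.5, 77.4 CPM in 129_E9.5 and 272 CPM in B6_E9.5 in muscle. In ectoderm it was at 15.7 CPM in B6_E10.5, 37.3 CPM in 129_E9.5 and 118 CPM in B6_E9.5, where the B6_E9.5 level stood near that of mesenchyme and the other 2 levels were well below it. The endothelial class held 52.7 to 113 CPM and the erythroid class 1.17 to 20.8 CPM.

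Of the zinc finger genes, Peg3 was highest in mesenchyme, at 496 CPM in B6_E10.5, 686 CPM in 129_E9.5 and 745 CPM in B6_E9.5. In ectoderm it was at 383 CPM in B6_E10.5, 489.8 CPM in 129_E9.5 and 428 CPM in B6_E9.5. Muscle held 227 to 399 CPM, the endothelial class 98.4 to 264 CPM and the erythroid class 31.7 to 112 CPM. In every library the order was mesenchyme, ectoderm, muscle, endothelial, erythroid. Its neighbour Zim1 had another order, with ectoderm highest in every library, at 14.6 CPM in B6_E10.5, 16.8 CPM in 129_E9.5 and 29.3 CPM in B6_E9.5. Mesenchyme held 4.49 CPM in B6_E10.5, 4.18 CPM in 129_E9.5 and 7.59 CPM in B6_E9.5, and muscle 1.84 to 8.16 CPM. The endothelial class held 3 Zim1 UMIs in B6_E10.5, 0 in 129_E9.5 and 19 in B6_E9.5.

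Plagl1 was highest in the endothelial class of every library, at 202 CPM in B6_E10.5, 222 CPM in 129_E9.5 and 268 CPM in B6_E9.5. The next class was muscle, at 49.7 CPM in B6_E10.5, 39.8 CPM in 129_E9.5 and 30.0 CPM in B6_E9.5, and the ranges of these 2 classes did not overlap. Mesenchyme held 7.1 CPM in B6_E10.5, 4.71 CPM in 129_E9.5 and 10.2 CPM in B6_E9.5, and ectoderm 1.42 to 3.24 CPM. The endothelial class of B6_E10.5 also held more myeloid and megakaryocyte marker UMIs than that of B6_E9.5, as given above, and their part in these levels was not tested.

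**Figure D1:**
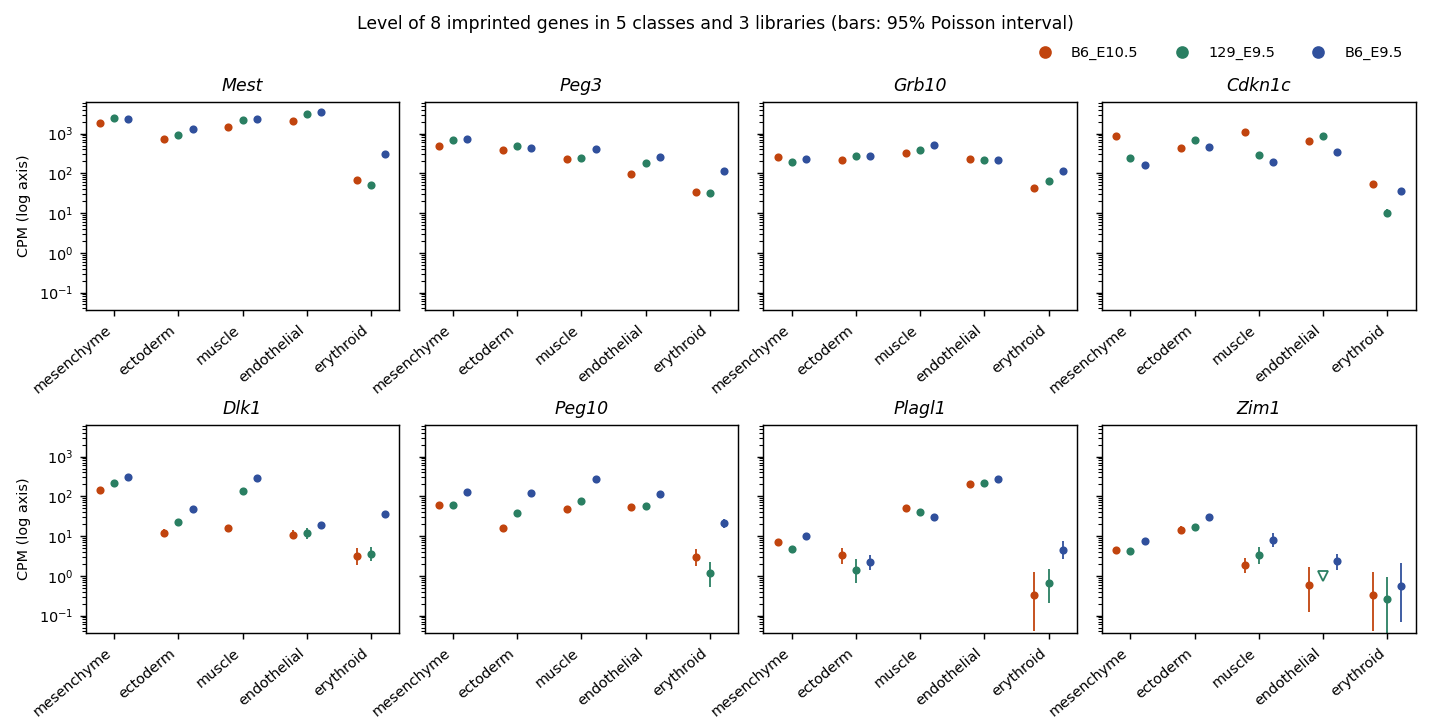
CPM on a log axis of each gene (panels) in the 5 classes, with 1 point per library (B6_E10.5, 129_E9.5, B6_E9.5 from left to right) and 95% Poisson intervals; the open triangle is the upper limit of the interval where no UMI was counted. Plagl1 peaked in the endothelial class, Zim1 in ectoderm, and Cdkn1c in mesenchyme was highest in B6_E10.5, at 876 CPM.

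Shares of cells were taken after each cell was thinned to 2000 UMIs, leaving out shallower cells; in mesenchyme this kept 13704 of 15325 cells of B6_E10.5, 8967 of 9233 of 129_E9.5 and 6981 of 9678 of B6_E9.5. Mest was found in nearly every mesenchyme cell, 94.4% of B6_E10.5, 98.0% of 129_E9.5 and 96.7% of B6_E9.5. Peg3 was found in 59.1% of B6_E10.5, 70.2% of 129_E9.5 and 73.8% of B6_E9.5. A Cdkn1c UMI was found in 70.1% of B6_E10.5, 34.6% of 129_E9.5 and 24.8% of B6_E9.5, and with all UMIs of all cells in 87.0% of B6_E10.5, 69.6% of 129_E9.5 and 53.4% of B6_E9.5. Dlk1 was found in 20.1% of B6_E10.5, 28.1% of 129_E9.5 and 38.0% of B6_E9.5. For Grb10 the thinned shares were 40.6% of B6_E10.5, 31.4% of 129_E9.5 and 35.9% of B6_E9.5, and for Peg10 they were 11.9% of B6_E10.5, 11.7% of 129_E9.5 and 24.1% of B6_E9.5. Without thinning, Dlk1 was found in 33.0% of B6_E10.5, 52.9% of 129_E9.5 and 62% of B6_E9.5, Grb10 in 69.9% of B6_E10.5, 71.0% of 129_E9.5 and 66.7% of B6_E9.5, Peg10 in 28.0% of B6_E10.5, 34.9% of 129_E9.5 and 55.1% of B6_E9.5, Peg3 in 82.0% of B6_E10.5, 93.8% of 129_E9.5 and 78.5% of B6_E9.5 and Mest in 95.7% of B6_E10.5, 99.1% of 129_E9.5 and 90.1% of B6_E9.5. For Grb10, Peg10, Peg3 and Mest the unthinned order of libraries differed from the thinned one. The same held for the shares given below of Zim1 in mesenchyme and of Plagl1 in the endothelial class. No order is read from the unthinned shares of these genes. The erythroid class, with 391 thinned cells in B6_E10.5, 621 in 129_E9.5 and 157 in B6_E9.5, was taken as a rough measure of the background that free RNA gives. Haemoglobin genes took 31.9% to 52.1% of UMIs there, which left fewer of the 2000 UMIs for other genes. Whether erythroid cells make these transcripts themselves was not tested. For Grb10 the erythroid class had shares of 9.21% of B6_E10.5, 8.21% of 129_E9.5 and 22.9% of B6_E9.5. Its other shares were 6.14% of B6_E10.5, 1.77% of 129_E9.5 and 3.18% of B6_E9.5 for Cdkn1c, 0.256% of B6_E10.5, 1.45% of 129_E9.5 and 3.82% of B6_E9.5 for Dlk1 and 11.5% of B6_E10.5, 7.41% of 129_E9.5 and 15.9% of B6_E9.5 for Mest. All of these were below those of mesenchyme. Median depths before thinning were 5422 UMIs in B6_E10.5, 7463 in 129_E9.5 and 8067 in B6_E9.5 for mesenchyme, beside the erythroid medians above. Zim1 (0.956% of B6_E10.5, 0.736% of 129_E9.5 and 1.88% of B6_E9.5) and Plagl1 (1.54% of B6_E10.5, 1.13% of 129_E9.5 and 1.95% of B6_E9.5) were rare in mesenchyme, with unthinned shares of 2.58% of B6_E10.5, 3.04% of 129_E9.5 and 6.98% of B6_E9.5 for Zim1 and 3.82% of B6_E10.5, 2.77% of 129_E9.5 and 7.2% of B6_E9.5 for Plagl1. The Zim1 shares had counting intervals that overlapped those of the erythroid class in all 3 libraries. The erythroid class had few thinned cells, so this overlap cannot decide whether the classes differ, and the shares are not read as expression. By CPM the Zim1 intervals of these classes did not overlap in any library. In mesenchyme they were 7.05 to 8.15 CPM in B6_E9.5, 4.06 to 4.94 CPM in B6_E10.5 and 3.72 to 4.69 CPM in 129_E9.5. In the erythroid class they were 0.0691 to 2.06 CPM in B6_E9.5, 0.0407 to 1.21 CPM in B6_E10.5 and 0.0314 to 0.935 CPM in 129_E9.5. The part of free RNA was not tested. In ectoderm the Zim1 share was 3.95% of B6_E10.5, 3.46% of 129_E9.5 and 6.88% of B6_E9.5, against 0.256% of B6_E10.5, 0% of 129_E9.5 and 0% of B6_E9.5 in the erythroid class. In the endothelial class a Plagl1 UMI was found in 27.6% of B6_E10.5, 31.2% of 129_E9.5 and 38.7% of B6_E9.5, and without thinning in 44.3% of B6_E10.5, 62.7% of 129_E9.5 and 58.7% of B6_E9.5, against none of the thinned erythroid cells of any library, which allows erythroid shares of up to 0.939% in B6_E10.5, 0.592% in 129_E9.5 and 2.32% in B6_E9.5 (exact Clopper-Pearson bounds).

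Stage was compared within c57bl6.J, B6_E10.5 over B6_E9.5. With 1 library a group there was no test, and a gene was called by size, at a CPM ratio of 2 or more where the higher library reached 50 CPM and 20 UMIs. In mesenchyme, 6 of the 8 genes passed the minimum and 3 were called, 1 higher and 2 lower, against 4.57% of all such genes called higher and 2.66% called lower. Cdkn1c was the gene called higher, 5.49-fold higher (95% counting interval 5.4 to 5.58). Peg10 was 2.16-fold lower (95% counting interval 2.09 to 2.23) and Dlk1 2.13-fold lower (95% counting interval 2.09 to 2.17). Grb10, which like Cdkn1c restrains growth, was 1.12-fold higher. Peg3 (1.5-fold lower) and Mest (1.29-fold lower) passed the minimum and were not called. Zim1 (1.69-fold lower) and Plagl1 (1.44-fold lower) were under the CPM minimum. The median log2 ratio of the 6 genes was -0.48, against -0.01 over all genes passing the minimum. Somite and sclerotome markers in mesenchyme summed to 85.2 CPM in B6_E10.5 and 10.6 CPM in B6_E9.5, and erythroid markers to 301 CPM in B6_E10.5 and 1330.4 CPM in B6_E9.5; their part in these ratios was not tested. Set against 129_E9.5 in place of B6_E9.5, Cdkn1c was 3.66-fold higher, Dlk1 1.51-fold lower and Peg10 at a log2 ratio of 0.0071, so that the Peg10 difference was not present against the other E9.5 library. Zim1 (1.07-fold higher) and Plagl1 (1.51-fold higher) had the opposite direction against 129_E9.5. In that comparison 1 of the 6 genes that passed the minimum was called in mesenchyme (Cdkn1c), and 0 of 4 in ectoderm. Of all genes that passed it, 6.65% in mesenchyme and 3.93% in ectoderm were called. TMM scaling moved the median log2 ratio of all genes in mesenchyme to -0.14 and the share of genes that were higher to 38.3%, against 48.8% with the class total, and no ratio of the 8 genes changed direction in mesenchyme or ectoderm.

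The stage difference of Cdkn1c was not found in every class. In muscle it was 5.51-fold higher (95% counting interval 5.1 to 5.97), close to its ratio in mesenchyme, and in the endothelial class it was 1.88-fold higher (95% counting interval 1.79 to 1.98). In ectoderm its CPM was 1.1-fold lower (95% counting interval 1.05 to 1.15). Against 129_E9.5, Cdkn1c was 3.73-fold higher in muscle, and it was 1.6-fold lower in ectoderm and 1.36-fold lower in the endothelial class. The direction in the endothelial class thus depended on which E9.5 library was used.

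In ectoderm, 5 genes passed the minimum and Peg10 was the 1 called, 7.5-fold lower (95% counting interval 6.1 to 9.31), against 1.44% of all genes called lower. Mest was 1.81-fold lower (95% counting interval 1.75 to 1.88). Dlk1 (3.84-fold lower) and Zim1 (2.01-fold lower) were under the CPM minimum. Against 129_E9.5, Peg10 in ectoderm was 2.37-fold lower (95% counting interval 1.87 to 3.04) and, at 37.3 CPM in 129_E9.5, under the CPM minimum. In muscle, 3 of 6 genes were called, Cdkn1c higher and Dlk1 and Peg10 lower, against 2.5% of all genes called higher and 3.72% called lower. Dlk1 had the largest difference there, 18.8-fold lower (95% counting interval 16.1 to 22.1), and Peg10 was 5.63-fold lower (95% counting interval 5.07 to 6.25). Against 129_E9.5, Dlk1 in muscle was 8.94-fold lower and Peg10 1.6-fold lower, the Peg10 difference being under 2-fold. Grb10 was 1.62-fold lower in muscle. The sum of somite and sclerotome markers in muscle, at 208 CPM in B6_E10.5 and 775 CPM in B6_E9.5, moved with Dlk1, and its part in this difference was not tested. In the endothelial class, Peg3 was 2.68-fold lower (95% counting interval 2.43 to 2.96) and Peg10 2.15-fold lower (95% counting interval 1.87 to 2.47); these were the 2 called of 6, against 2.28% of all genes called lower. Against 129_E9.5, Peg3 in that class was 1.86-fold lower and Peg10 1.11-fold lower, both under 2-fold. Myeloid markers in that class were at 1302 CPM in B6_E10.5 and 33.8 CPM in B6_E9.5, and their part was not tested. In the erythroid class Peg3, Mest and Grb10 were called lower of 4 genes that passed, beside 18.4% of all genes. The median log2 ratio of all genes in that class was -0.60, and 0.06 with TMM scaling, with 10.4% and 55.9% of genes higher.

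**Figure D2:**
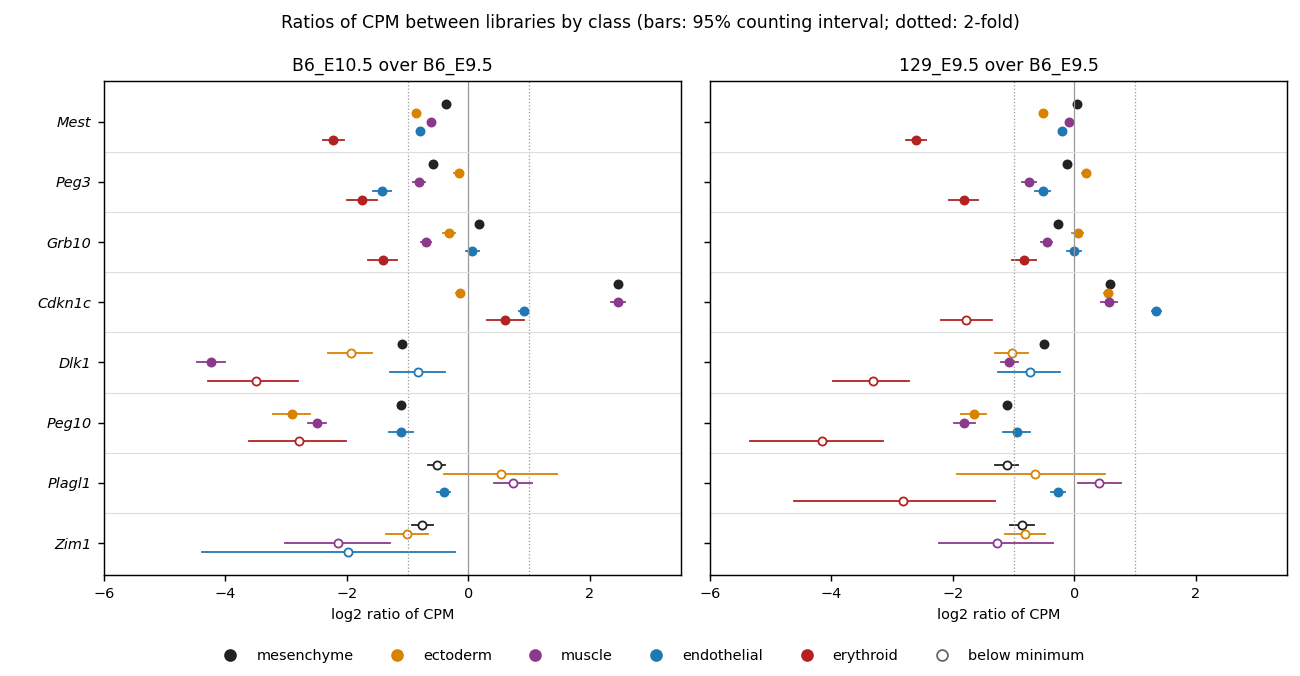
log2 ratio of CPM of each gene between libraries, B6_E10.5 over B6_E9.5 on the left and 129_E9.5 over B6_E9.5 on the right, with 1 point per class and 95% counting intervals; open points are under the minimum of 50 CPM and 20 UMIs, dotted lines mark 2-fold, and ratios with a count of 0 or fewer than 20 UMIs in all are left out. Peg10 lay left of 0 in every class shown in both comparisons, and Cdkn1c at stage lay at 2.46 in mesenchyme and 2.46 in muscle but at -0.13 in ectoderm.

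Strain was compared at E9.5, 129_E9.5 over B6_E9.5. This comparison shares B6_E9.5 with the stage comparison, so a value particular to that library enters both. Peg10 was lower in 129_E9.5 in all 5 classes. In mesenchyme it was 2.17-fold lower (95% counting interval 2.09 to 2.24), the 1 gene called of 6 that passed, against 3.53% of all genes called lower. In ectoderm it was 3.16-fold lower (95% counting interval 2.75 to 3.64), again the 1 called, of 5, against 2.58%. In muscle, 2 of 6 were called, against 4.21% of all genes called lower: Peg10 was 3.51-fold lower (95% counting interval 3.11 to 3.96), and Dlk1 was 2.11-fold lower (95% counting interval 1.91 to 2.32). Neuron markers there summed to 801 CPM in 129_E9.5 and 2.04 CPM in B6_E9.5, and their part was not tested. In the endothelial class Cdkn1c was called, 2.55-fold higher (95% counting interval 2.43 to 2.68), the 1 of 6, against 2.09% called higher. Neuron markers in that class summed to 163 CPM in 129_E9.5 and 41.7 CPM in B6_E9.5, and neural crest markers to 48.1 CPM in 129_E9.5 and 2.67 CPM in B6_E9.5; their part was not tested.

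Cdkn1c was also higher in 129_E9.5 outside that class, by less than 2-fold: 1.5-fold higher in mesenchyme, 1.46-fold higher in ectoderm and 1.48-fold higher in muscle. Mest differed little in mesenchyme (1.03-fold higher) and was 1.43-fold lower in ectoderm. Peg3 was 1.09-fold lower in mesenchyme and 1.14-fold higher in ectoderm. In the erythroid class Peg3 and Mest were called lower of 3 genes that passed, beside 17.3% of all genes, where the median log2 ratio of all genes was -0.45, and 0.09 with TMM scaling, with 20.3% and 55.8% of genes higher. For the 129S6.sv strain no E10.5 library was analysed here.

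Regions and states within a class were compared by splitting its cells on 1 marker gene. Cells with at least 2000 UMIs were classed by a marker UMI among 2000 UMIs drawn from the cell, the raw UMIs of each side were summed per library, and the 6 sums were tested with edgeR's quasi-likelihood test with library as a block, adjusted by Benjamini-Hochberg over all genes. The 3 libraries mix stage and strain, and nothing in the labels says that they are replicates. The test also draws the variance of each gene from all genes. Its p-values therefore do not measure the spread of 1 gene between these unlike libraries alone, and an SE can be smaller than that spread. In the En1 split below, Cdkn1c had an SE of 0.0956 on the log2 scale. Its ratios were 0.817 in B6_E10.5, 2.1 in 129_E9.5 and 1.92 in B6_E9.5. A cell without a marker UMI is not a cell without the gene. Each pair of values below gives the cells with the marker against the cells without it.

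In ectoderm, cells with Fgf8, the growth factor made by the apical ectodermal ridge, had less Mest. Cells numbered 212 with and 700 without in B6_E10.5, 448 with and 709 without in 129_E9.5, and 296 with and 591 without in B6_E9.5. Mest was at 343 against 833 CPM in B6_E10.5, 475 against 1139 CPM in 129_E9.5 and 887 against 1517 CPM in B6_E9.5 and it fell in 3 of 3 libraries (log2 fold change -1.05, SE 0.105, adjusted p = 0.00112). Dlk1 also fell (log2 fold change -1.34, SE 0.266, adjusted p = 0.0171), at 12.6 against 12.4 CPM in B6_E10.5, 9.21 against 29.9 CPM in 129_E9.5 and 18.8 against 60.7 CPM in B6_E9.5, which is lower in both E9.5 libraries and level in B6_E10.5. Grb10 fell by less, in 3 of 3 libraries (log2 fold change -0.31, SE 0.0754, adjusted p = 0.0367), at 176 against 228 CPM in B6_E10.5, 235 against 303 CPM in 129_E9.5 and 232 against 288 CPM in B6_E9.5. Of the 7 genes with enough counts to be tested (Plagl1 was filtered out), 3 fell and 0 rose (edgeR; 6 at an unadjusted p under 0.05, and 1, Mest, by DESeq2), against 4.11% of all genes called lower and 5.65% called higher. The median log2 fold change was -0.31 over the 7 genes and -0.0023 over all genes. Zim1 did not pass the test (adjusted p = 0.102 by edgeR), at 37.1 against 8.35 CPM in B6_E10.5, 23.5 against 13.2 CPM in 129_E9.5 and 32.1 against 28.3 CPM in B6_E9.5. Without 129_E9.5, Dlk1 (adjusted p = 0.194) and Grb10 (adjusted p = 0.285) no longer passed edgeR's test, and without B6_E9.5 Dlk1 did not (adjusted p = 0.0701). By DESeq2, Mest kept its call (adjusted p = 7.11e-13) and Dlk1 (adjusted p = 0.0687) and Grb10 (adjusted p = 0.157) lost theirs; over all alternatives the adjusted p of Mest ran from 1.92e-25 to 0.341, the highest being that without the library block. Limb mesenchyme markers summed to 572 against 221 CPM in B6_E10.5, 523 against 227 CPM in 129_E9.5 and 526 against 411 CPM in B6_E9.5, and somite and sclerotome markers to 16.3 against 28.7 CPM in B6_E10.5, 4.6 against 88.3 CPM in 129_E9.5 and 7.35 against 57.8 CPM in B6_E9.5; median UMIs per cell were 5691 against 6330 in B6_E10.5, 4499 against 5262 in 129_E9.5 and 12207.5 against 11260 in B6_E9.5. The part of these in the Fgf8 results was not tested.

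Ectoderm was also split on En1, which marks its ventral side. Cells numbered 125 with and 787 without in B6_E10.5, 180 with and 977 without in 129_E9.5, and 152 with and 735 without in B6_E9.5. Zim1 rose in cells with En1 (edgeR, log2 fold change 0.88, SE 0.171, adjusted p = 7.69e-04). It was at 21.5 against 13.7 CPM in B6_E10.5, 32.8 against 14.0 CPM in 129_E9.5 and 46.8 against 26.4 CPM in B6_E9.5. It was higher in 3 of 3 libraries, in B6_E10.5 on 18 Zim1 UMIs in cells with En1. The counting interval of the B6_E10.5 ratio, 0.882 to 2.67, included a ratio of 1. Peg10 fell (log2 fold change -1.09, SE 0.157, adjusted p = 2.35e-06), at 15.6 against 15.2 CPM in B6_E10.5, 21.9 against 39.9 CPM in 129_E9.5 and 52.2 against 131 CPM in B6_E9.5, which is lower in both E9.5 libraries and level in B6_E10.5. Cdkn1c rose over the 3 libraries (log2 fold change 0.65, SE 0.0956, adjusted p = 4.13e-06), at 361 against 442 CPM in B6_E10.5, 1248 against 594 CPM in 129_E9.5 and 791 against 412 CPM in B6_E9.5. Its direction in B6_E10.5 was the opposite of that in both E9.5 libraries. Peg3, the neighbour of Zim1, was at 399 against 384 CPM in B6_E10.5, 616 against 467 CPM in 129_E9.5 and 495 against 417 CPM in B6_E9.5 and did not pass (edgeR, adjusted p = 0.0529). Of 8 genes, 2 rose and 1 fell, against 0.619% of all genes called higher and 0.599% called lower. All 3 calls were lost by DESeq2 (adjusted p = 0.409 for Zim1, 0.449 for Peg10 and 1.00 for Cdkn1c), and without B6_E9.5 edgeR lost Zim1 (adjusted p = 0.0867) and Peg10 (adjusted p = 0.761, log2 fold change -0.57). The Cdkn1c log2 fold change was 1.00 without B6_E10.5 and 0.41 without 129_E9.5. Somite and sclerotome markers summed to 23.9 against 26.2 CPM in B6_E10.5, 31.7 against 63.6 CPM in 129_E9.5 and 3.64 against 47.1 CPM in B6_E9.5, and their part was not tested.

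In mesenchyme, cells with Hand2, a transcription factor of the posterior limb bud, had more Dlk1. Cells numbered 1799 with and 11905 without in B6_E10.5, 431 with and 8536 without in 129_E9.5, and 616 with and 6365 without in B6_E9.5. Dlk1 was at 159 against 138 CPM in B6_E10.5, 288 against 210.4 CPM in 129_E9.5 and 409 against 295 CPM in B6_E9.5, and it rose in 3 of 3 libraries (log2 fold change 0.36, SE 0.0413, adjusted p = 6.87e-06). Cdkn1c rose (log2 fold change 0.25, SE 0.0599, adjusted p = 0.031), at 871 against 874 CPM in B6_E10.5, 285 against 237 CPM in 129_E9.5 and 231 against 153 CPM in B6_E9.5, level in B6_E10.5. Peg3 fell (log2 fold change -0.18, SE 0.0443, adjusted p = 0.0404), at 389.9 against 511 CPM in B6_E10.5, 643 against 688 CPM in 129_E9.5 and 761 against 751 CPM in B6_E9.5, close to level in B6_E9.5. Somite and sclerotome markers summed to 47.5 against 90.4 CPM in B6_E10.5, 10.4 against 17.0 CPM in 129_E9.5 and 7.11 against 10.48 CPM in B6_E9.5, and their part was not tested. Of 8 genes, 2 rose and 1 fell, against 0.886% of all genes called higher and 0.862% called lower. Dlk1 kept its call by DESeq2 (adjusted p = 1.19e-07) and without each library, the highest being 7.96e-04 without 129_E9.5, and lost it without the library block (range of adjusted p over alternatives 6.13e-22 to 1.0). Cdkn1c was lost by DESeq2 (adjusted p = 1.00), without B6_E9.5 (adjusted p = 0.356, log2 fold change 0.09) and without 129_E9.5 (adjusted p = 0.19), and its log2 fold change was 0.42 without B6_E10.5; Peg3 was lost by DESeq2 (adjusted p = 0.196), without B6_E10.5 (adjusted p = 0.524, log2 fold change -0.06) and without 129_E9.5 (adjusted p = 0.151).

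Cells with Lmx1b, a transcription factor of the dorsal limb bud, had less Cdkn1c. Cells numbered 573 with and 13131 without in B6_E10.5, 669 with and 8298 without in 129_E9.5, and 767 with and 6214 without in B6_E9.5. Cdkn1c was at 796 against 877 CPM in B6_E10.5, 169 against 245 CPM in 129_E9.5 and 107 against 166 CPM in B6_E9.5, and it fell in 3 of 3 libraries (log2 fold change -0.43, SE 0.054, adjusted p = 1.76e-05). Dlk1 fell (log2 fold change -0.22, SE 0.0534, adjusted p = 0.0286), at 154 against 141 CPM in B6_E10.5, 189 against 216 CPM in 129_E9.5 and 239.6 against 313 CPM in B6_E9.5, lower in both E9.5 libraries and slightly higher in B6_E10.5. Of 8 genes, 2 fell and 0 rose (edgeR; 5 at an unadjusted p under 0.05), against 1.17% of all genes called lower and 0.921% called higher. Ectoderm markers summed to 15.2 against 18.5 CPM in B6_E10.5, 7.3 against 16.7 CPM in 129_E9.5 and 9.81 against 23.3 CPM in B6_E9.5, and their part was not tested. By DESeq2 neither was called (adjusted p = 0.293 for Cdkn1c and 1.00 for Dlk1) and Mest was (adjusted p = 0.0288, log2 fold change 0.11). With edgeR, Cdkn1c kept its call without each library, at log2 fold changes from -0.60 to -0.31, and Dlk1 lost it without B6_E9.5 (adjusted p = 0.761, log2 fold change -0.07).

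Cells with Sox9, a transcription factor of cartilage precursors, numbered 3970 in B6_E10.5, 479 in 129_E9.5 and 264 in B6_E9.5, against 9734, 8488 and 6717 cells without. Peg10 rose in cells with Sox9 in 3 of 3 libraries (edgeR, log2 fold change 0.29, SE 0.0655, adjusted p = 0.00932). It was at 73.9 against 56.2 CPM in B6_E10.5, 79.9 against 59.7 CPM in 129_E9.5 and 145 against 133 CPM in B6_E9.5. The counting interval of the B6_E9.5 ratio, 0.995 to 1.19, included a ratio of 1. Dlk1 rose too (edgeR, log2 fold change 0.27, SE 0.0666, adjusted p = 0.0166). It was at 143 against 141 CPM in B6_E10.5, 312 against 209 CPM in 129_E9.5 and 374 against 302 CPM in B6_E9.5. This is level in B6_E10.5, where the counting interval of the ratio was 0.978 to 1.06. Cdkn1c rose over the 3 libraries (edgeR, log2 fold change 0.44, SE 0.101, adjusted p = 0.00973), with the largest difference in B6_E10.5. It was at 1290.0 against 724 CPM in B6_E10.5, 330.2 against 234 CPM in 129_E9.5 and 149.9 against 159.9 CPM in B6_E9.5. The B6_E9.5 ratio was slightly below 1, and its counting interval, 0.857 to 1.02, included a ratio of 1. Of 8 genes, 3 rose and 0 fell (edgeR; 5 at an unadjusted p under 0.05, and 0 by DESeq2), against 3.28% of all genes called higher and 4.41% called lower. Somite and sclerotome markers summed to 90.4 against 82.7 CPM in B6_E10.5, 44.8 against 15.2 CPM in 129_E9.5 and 24.4 against 9.66 CPM in B6_E9.5, and median UMIs per cell were 5200.5 against 6283 in B6_E10.5, 7093 against 7579 in 129_E9.5 and 12491.5 against 14000 in B6_E9.5; their part was not tested. By DESeq2 the adjusted p was 0.0523 for Peg10, 0.0607 for Dlk1 and 0.652 for Cdkn1c. With edgeR, Dlk1 was lost without 129_E9.5 (adjusted p = 0.395, log2 fold change 0.15), Peg10 was lost without 129_E9.5 (adjusted p = 0.0888) and without B6_E10.5 (adjusted p = 0.104), and the Cdkn1c log2 fold change was 0.20 without B6_E10.5.

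A split on Top2a, a gene of dividing cells, called 0 of the 8 genes by edgeR, with 1 (Cdkn1c) at an unadjusted p under 0.05 and 0 called by DESeq2, against 0.737% of all genes called. Grb10 and Peg3 passed an adjusted p of 0.05 in some of the alternative fits. Cdkn1c, the inhibitor of division, was at 745 against 1033 CPM in B6_E10.5, 240.5 against 237 CPM in 129_E9.5 and 155 against 163 CPM in B6_E9.5 (log2 fold change -0.19, SE 0.0762, adjusted p = 0.207). It was lower in cells with Top2a in B6_E10.5 and close to level in both E9.5 libraries.

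**Figure D3:**
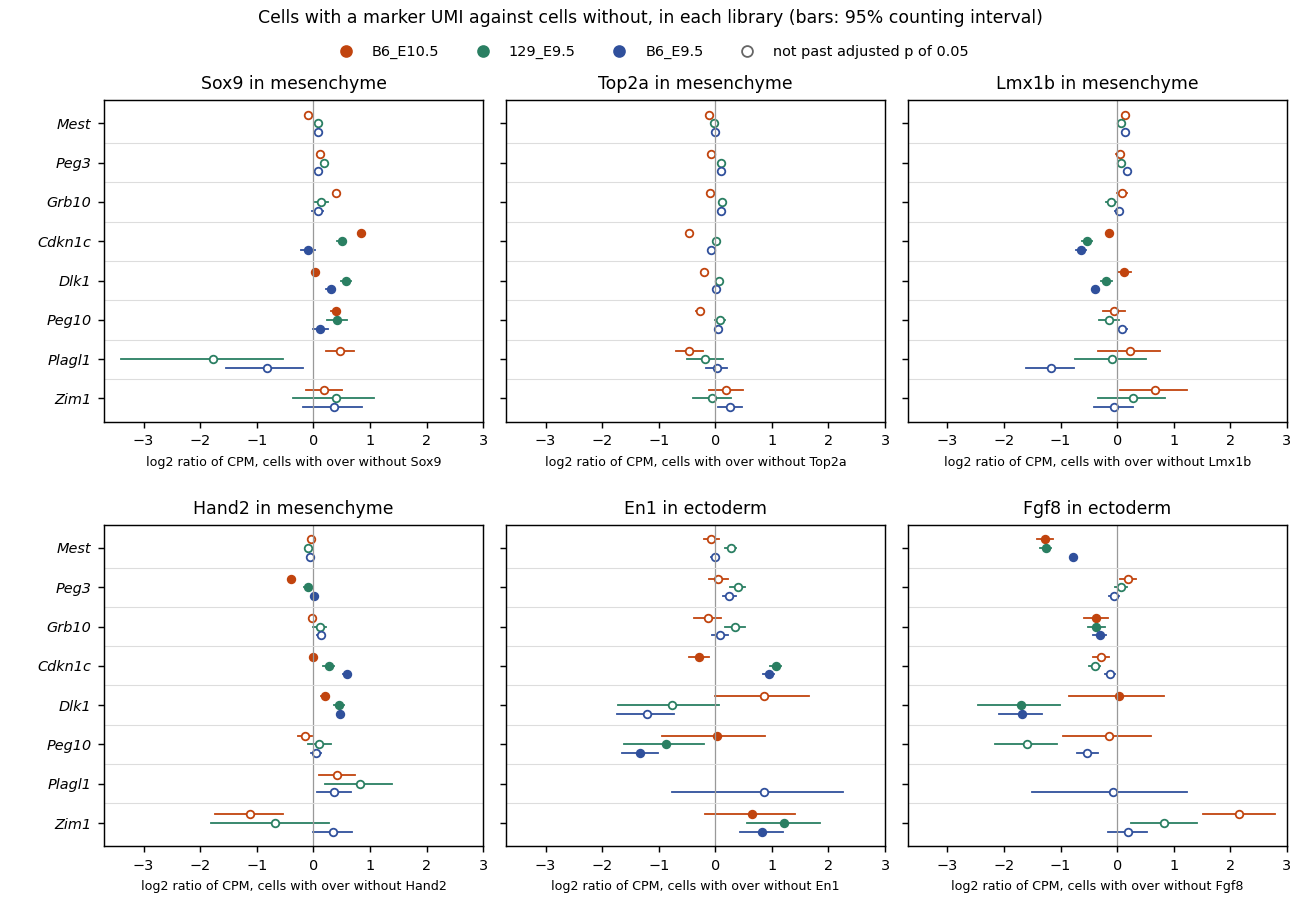
log2 ratio of CPM in cells with a marker UMI over cells without, for 6 markers (panels) and the 8 genes (rows), with 1 point per library (B6_E10.5, 129_E9.5, B6_E9.5 from top to bottom) and 95% counting intervals; open points are genes that did not pass an adjusted p of 0.05, and sums of fewer than 20 UMIs are left out. Mest lay left of 0 in all 3 libraries in the Fgf8 split and Dlk1 right of 0 in all 3 in the Hand2 split.

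Co-variation of the 8 genes from cell to cell was described with Spearman's rho across mesenchyme cells thinned to 2000 UMIs, within each library and averaged over the 3, with no p. The cells of a library share its preparation, and at this depth counts per cell are low. The 28 pairs had mean rho values from -0.013 to 0.0971, with a median of 0.0217. The highest was that of Dlk1 and Cdkn1c (0.0784 to 0.111 over libraries). The neighbours Peg3 and Zim1 were at 0.0217. Correlations this weak in sparse counts are no finding, and the 8 genes are not described as a group that moves together. Spread differed between genes. The variance of the thinned counts over their mean, which is 1 for counting noise alone, was 2.66 in B6_E10.5, 1.5 in 129_E9.5 and 1.26 in B6_E9.5 for Cdkn1c. For Dlk1 it was 1.79 in B6_E10.5, 1.89 in 129_E9.5 and 1.63 in B6_E9.5. Peg10 was near 1, at 1.03 in B6_E10.5, 1.03 in 129_E9.5 and 1.07 in B6_E9.5. At least 3 Cdkn1c UMIs among 2000 were found in 28.7% of cells in B6_E10.5, 3.59% in 129_E9.5 and 1.29% in B6_E9.5.

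Genes were ranked if found in at least 5% of thinned mesenchyme cells of every library. Symbols starting with mt-, Rpl, Rps or Gm plus digits were left out. Among the 4035 other genes kept, the 3 most like Dlk1 were Ptn, Sfrp1 and Mdk, with mean rho values of 0.264, 0.205 and 0.185. Ptn and Mdk encode related secreted heparin-binding growth factors, and Sfrp1 a secreted Wnt antagonist. The genes most opposed to Dlk1 were Lhx9 (-0.181), a transcription factor of the distal limb bud, and the imprinted genes Nnat (-0.173) and Asb4 (-0.166). Ptn and Eef1a1 were among the 3 most like Cdkn1c, with Ptn at a mean of 0.229 (0.349 in B6_E10.5, 0.163 in 129_E9.5 and 0.175 in B6_E9.5), and the most opposed to Cdkn1c were Msx1, Eif5a and Ncl. Ptn was among the 3 most alike for 5 of the 8 genes (Dlk1, Cdkn1c, Peg10, Plagl1 and Grb10). For Peg10, Plagl1 and Grb10 its mean rho was 0.0495, 0.0594 and 0.0654. Hmga2 (mean rho 0.115) and Sox11 (0.103) were among the 3 most like Peg3. For Zim1, Zfhx4 (0.0256) and Homer1 (0.0249) were among the 3 most alike. The 3 most like Mest were Nnat, Igdcc3 and Mdk, with Nnat highest at a mean rho of 0.0956. The values for Peg10, Plagl1, Grb10, Zim1 and Mest were no higher than that of the highest pair above, and are no finding.

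**Figure D4:**
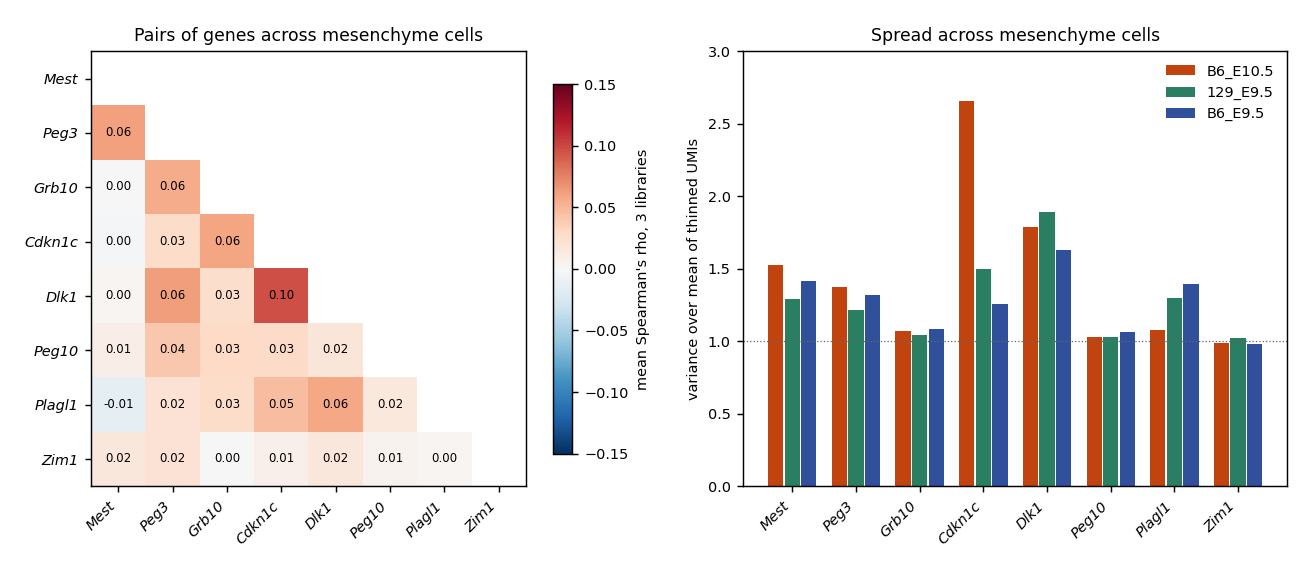
Left, mean Spearman's rho over 3 libraries for the 28 pairs of genes across mesenchyme cells thinned to 2000 UMIs, colour scale from -0.15 to 0.15. Right, variance over mean of the thinned counts of each gene, with 1 bar per library (B6_E10.5, 129_E9.5, B6_E9.5 from left to right) and a dotted line at 1; Cdkn1c in B6_E10.5 stands highest, at 2.66.

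A list of 43 further imprinted genes, of which 40 have a row, was described in the same way. It was chosen with earlier results of these data known. H19, Meg3 and Kcnk9 have no row, so they are not ranked here. Igf2 overlaps Gm49394 and Mir483 on its own strand and Igf2os on the other, and the effect on its counts was not tested. Those with most UMIs in mesenchyme were Nnat, a small membrane protein, at 872 CPM in B6_E10.5, 1008 CPM in 129_E9.5 and 678 CPM in B6_E9.5; Gnas, the stimulatory G protein alpha subunit, at 813 CPM in B6_E10.5, 572 CPM in 129_E9.5 and 533 CPM in B6_E9.5; and Asb4, a subunit of a ubiquitin ligase, at 642 CPM in B6_E10.5, 540.0 CPM in 129_E9.5 and 367 CPM in B6_E9.5. The next by UMIs were Cd81 at 239 CPM in B6_E10.5, 228 CPM in 129_E9.5 and 153 CPM in B6_E9.5, Ube3a at 168 CPM in B6_E10.5, 183 CPM in 129_E9.5 and 208 CPM in B6_E9.5, and Nap1l4 at 182 CPM in B6_E10.5, 221 CPM in 129_E9.5 and 149 CPM in B6_E9.5. At stage in mesenchyme, 1 of 16 that passed the minimum was called higher (Snrpn, 2.76-fold higher) and 1 lower (Slc38a4, 2.59-fold lower), beside 4.57% of all genes called higher and 2.66% called lower, and the median log2 ratio of the 16 was 0.27. In ectoderm 1 of 11 was called, Asb4, 2.06-fold higher, beside 2.38% of all genes called higher. In muscle Snrpn (2.3-fold higher) and Nnat (3.98-fold higher) were called higher and Ppp1r9a (3.11-fold lower) and Casd1 (3.04-fold lower) lower, of 14, beside 2.5% of all genes called higher and 3.72% called lower. In the endothelial class Nnat was the 1 called, of 13, 2.12-fold higher, beside 3.86% of all genes called higher. Against 129_E9.5, several of these differences were under 2-fold: Snrpn was 1.85-fold higher in mesenchyme and 1.36-fold higher in muscle, Slc38a4 1.94-fold lower in mesenchyme, and Nnat 1.02-fold lower in the endothelial class. Asb4 in ectoderm (3.16-fold higher) and, in muscle, Nnat (3.92-fold higher), Ppp1r9a (2.21-fold lower) and Casd1 (2.5-fold lower) stayed past 2-fold. For strain, Peg12 was called lower in mesenchyme (2.42-fold lower), the 1 of 16, beside 3.53% of all genes called lower, and in muscle (2.19-fold lower), the 1 of 14, beside 4.21%, and 0 of 10 were called in ectoderm. In the endothelial class, of 13, Nnat was 2.17-fold higher and Igf2r 2.21-fold lower, beside 2.09% of all genes called higher and 2.85% called lower.

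In the splits, edgeR called 7 of 38 of these genes with Sox9, 0 of 38 with Top2a (5 at an unadjusted p under 0.05, and 1 by DESeq2), 5 of 37 with Lmx1b, 3 of 38 with Hand2, 1 of 29 with En1 and 4 of 29 with Fgf8. Of all genes tested, 3.28% were called higher and 4.41% lower with Sox9, 0.737% either way with Top2a, 0.921% higher and 1.17% lower with Lmx1b, 0.886% higher and 0.862% lower with Hand2, 0.619% higher and 0.599% lower with En1, and 5.65% higher and 4.11% lower with Fgf8. DESeq2 called 4 with Sox9, 2 with Lmx1b, 2 with Hand2, 0 with En1 and 3 with Fgf8. Asb4 fell in cells with Hand2 (log2 fold change -0.57, adjusted p = 2.78e-07), where Dlk1 rose, and Nnat fell there as well (log2 fold change -0.20, adjusted p = 0.00131). In cells with Sox9, Casd1, Ppp1r9a and Zdbf2 rose and Dio3, Nnat, Asb4 and Nap1l5 fell, with log2 fold changes from -1.58 (Dio3) to 0.46 (Casd1). In cells with Lmx1b, Nap1l5, Ppp1r9a and Nnat rose and Phlda2 and Zdbf2 fell, and in cells with Hand2 Igf2r rose. Phlda2, a growth restrainer of the placenta, rose in cells with En1 (log2 fold change 1.11, adjusted p = 0.033). With Fgf8, Gnas (log2 fold change 0.47, adjusted p = 0.00424) and Cd81 (log2 fold change 0.50, adjusted p = 0.0235) rose and Slc38a4 (log2 fold change -1.15, adjusted p = 0.0218) and Zdbf2 fell.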

How the data were processed

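Values are raw UMI counts per gene and cell, which the authors deposited as 1 matrix of 15122 genes and 43950 cells without normalizing them, per the file headers. Cell Ranger 3 and mm10 are named in the submitters' processing notes. Stage, strain and cluster of each cell came from a second deposited table. The sources used here do not say how cells were filtered or clustered, and cells held 501 to 38723 UMIs. Gene symbols came from GENCODE M21 by identifier without version (15119 of 15122 genes matched). No further cell filter and no doublet caller were applied, so doublets may remain.

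Counts were summed per class and library and divided by the class total (CPM). Intervals are 95% exact Poisson (CPM), Clopper-Pearson (shares) and conditional binomial (ratios), and cover counting error only. Stage and strain have 1 library a group and no test. Marker splits used edgeR 4.0.16 (glmQLFit, glmQLFTest, TMM) in R 4.3.3 with library as a block, since both sides of a split come from the same library, with filterByExpr and Benjamini-Hochberg adjustment at 0.05; DESeq2 1.42.0 was an alternative. Each split was tested on simulated data made from its own sums, with 50 genes changed at each fold. With Sox9 (12657 genes), 44% of 1.25-fold and 80% of 2-fold changes were found, and 12.1% of calls were false. With Fgf8 (10300 genes), 0% of 1.25-fold and 76% of 2-fold changes were found, and 7.69% of calls were false. With En1 (10182 genes), 12% of 1.25-fold and 70% of 2-fold changes were found, and 5.5% of calls were false. Of the calls with Top2a (12505 genes) 5.95% were false, with Lmx1b (12349 genes) 2.5% and with Hand2 (12467 genes) 4.73%. Summaries used Python 3.11.15, numpy 2.4.6, scipy 1.17.1 and pandas 2.3.3. Other alternatives were TMM scaling, thinned sums, cells classed on all UMIs, no filter, no CPM minimum, no haemoglobin, 4000 UMIs, Pearson's r and leaving out each library; counting cells with at least 2000 UMIs alone was chosen after seeing the data.

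The 8 genes, the lists and the markers were chosen with earlier results of these data known. Levels of all 8 are given in every class; in a comparison, the 8 are given by counts, with values for those that were called and some of the others. Of the other imprinted genes, the 6 with most UMIs in mesenchyme and those past the fold or threshold are named. The 3 genes most like each of the 8 in mesenchyme were sought, and not all of these results are reported here.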

Additional observations from a re-analysis of the deposited data

Results flagged for a closer look

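Effects that went opposite ways in 2 classes or 2 stages are given where every 95% counting interval left out a ratio of 1. Between classes, 1 of the ratios also had to reach 2-fold, and the erythroid class was left out. This held 7 times, and in each of them the difference was not tested. The stage ratio of Cdkn1c on the log2 scale was 2.60 higher in muscle than in ectoderm, since it was positive in muscle and negative in ectoderm. Between classes other than erythroid, 3 smaller pairs of opposite ratios had such intervals with no ratio at 2-fold. They were Grb10 at stage (1.12-fold higher in mesenchyme, 1.62-fold lower in muscle), Peg3 for strain (1.14-fold higher in ectoderm, 1.68-fold lower in muscle) and Mest for strain (1.03-fold higher in mesenchyme, 1.43-fold lower in ectoderm). In the erythroid class each of these 3 genes was called lower in the same comparison, as given above. The other 6 of the 7 concern marker splits in which both E9.5 libraries went against B6_E10.5, given as the mean log2 ratio of the E9.5 libraries minus that of the E10.5 library. In the En1 split of ectoderm the value was 1.30 for Cdkn1c. For Dlk1 it was -0.42 in the Lmx1b split. In the Sox9 split it was 0.18 for Mest and -1.76 for Plagl1, a gene with few UMIs in mesenchyme. In the Top2a split it was 0.18 for Peg3 and 0.21 for Grb10.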

How the results depend on the processing

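Each split was fitted with both sides of a library paired by that library. The counts of genes called were 985 (Sox9), 93 (Top2a), 261 (Lmx1b), 221 (Hand2), 126 (En1) and 1021 (Fgf8). Without the library block, which undoes the pairing, they were 0, 0, 0, 0, 1 and 37 in the same order, and none of the 14 calls among the 8 genes remained. With cells classed on all UMIs the counts were 572 (Sox9), 3 (Top2a) and 724 (Lmx1b). With thinned UMIs summed they were 151 (Top2a), 83 (Lmx1b), 100 (Hand2), 29 (En1) and 576 (Fgf8). With no filter on low counts they were 1492 (Sox9), 439 (Lmx1b) and 427 (Hand2). With DESeq2 they were 401 (Sox9), 68 (Lmx1b), 80 (Hand2), 13 (En1) and 483 (Fgf8). Leaving out 1 library at a time gave 472 to 1819 (Sox9), 0 to 1298 (Top2a), 153 to 358 (Lmx1b), 133 to 366 (Hand2), 57 to 85 (En1) and 116 to 1501 (Fgf8). Of the 14 calls, 8 were kept with cells classed on all UMIs, 9 with thinned sums, 14 with no filter, 2 with DESeq2, 9 without B6_E9.5, 12 without B6_E10.5 and 8 without 129_E9.5. Results of the 8 genes that were not called could also gain a call. Of 33 such results, 7 did with cells classed on all UMIs, 7 with no filter and 2 without 129_E9.5. Of 32, 1 did with thinned sums, 5 without B6_E9.5 and 8 without B6_E10.5. By DESeq2 it was 1 of 30. Zim1 and Peg10 with Fgf8 and Peg3 with En1 were among those gaining a call in some fit. With 129_E9.5 as the E9.5 library, 1 gene was called for stage in mesenchyme and 0 in ectoderm, against 3 and 1, and 13 of the 16 directions held; those of Peg10, Zim1 and Plagl1 in mesenchyme turned, to log2 ratios of 0.0071, 0.10 and 0.59. With no CPM minimum, 3 were called for stage in ectoderm, 2 for strain in mesenchyme and 2 for strain in ectoderm. The causes were not tested. The directions of all 32 ratios in mesenchyme and ectoderm held under TMM scaling, thinning, removal of haemoglobin genes and a minimum of 2000 UMIs per cell. Their sizes did not all hold: with thinning the largest move was 1.54 on the log2 scale, and the median move was -0.018. The largest move was 0.127 under TMM scaling, 0.0015 without haemoglobin genes and 0.058 with the minimum of 2000 UMIs. The median rho of the 28 pairs was 0.0291 at 4000 UMIs and 0.0253 with Pearson's r. Zim1 and Plagl1 are limited by few UMIs per cell.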
